A study of Mus musculus with 4 samples.

Results

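The genes described here carry out mitosis and chromosome segregation. A list of 45 genes of the G2 and M phases was taken by gene symbol, and every probe set of these genes in the deposited table was read. For 44 of the 45 at least 1 probe set was named in the platform annotation, 94 probe sets in all out of 45037, while Ccnb1 had none there and was not analysed here. One probe set stands for each gene, the one with the highest mean over the arrays, which gives 44 of 18193 genes.

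Colonic epithelial cells of C57BL/6 mice aged 6 to 8 weeks were profiled on Affymetrix Mouse430_2 arrays, 1 array for each of 4 genotypes labelled WT, Bmi1ΔIEC, Mel18ΔIEC and DKO, the last being Bmi1ΔIEC Mel18ΔIEC. All mice, wild type included, had been given the carcinogen azoxymethane (10 mg/kg, intraperitoneal). From day 5 they drank 3.5% dextran sulfate sodium, which injures the colonic epithelium, for 5 days, and cells were taken on day 12. There is therefore no untreated array. The deleting Cre line, the deleted exons and the number of mice behind an array are not given in the sources used here, and a number set beside each genotype in the design text is not explained there. Cells were released with EDTA and no sorting step is described. Bmi1 and Mel18 (gene symbol Pcgf2) are related subunits of Polycomb repressive complex 1, and the layout asks what the loss of either or both does in this model.

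A cell enters mitosis when Cdk1 is activated by cyclins A and B, and the kinases Plk1 and Aurora A and B then drive spindle assembly and chromosome attachment. Condensin and topoisomerase II compact the chromosomes, the kinetochore ties them to spindle fibres, and the spindle checkpoint holds back the anaphase-promoting complex until every chromosome is attached. Most of these genes are transcribed late in the cycle, under the DREAM and MuvB complexes with B-Myb and FoxM1. In the colon, transcripts of this kind come mainly from the dividing cells of the lower crypt.

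Each value is a deposited intensity of 1 array, and differences are in log2 units of that intensity. With 1 array per genotype there is no p-value, SD or SE, precision is limited by how few arrays there are, and no difference has a replicate check. As a yardstick that is not a replicate error, the log2 difference between the Bmi1ΔIEC-labelled and Mel18ΔIEC-labelled arrays, the closest pair, had an SD of 0.32 over all genes that reached the floor defined next. To be counted as lower or higher a gene had to show a difference of 2-fold or more with its brighter value at or over 33.4 units, the median of all probe-set values and called the floor here. The 2 probe sets of Bmi1 read between 334 and 432 units where the label names a Bmi1 deletion and between 88.4 and 159.6 elsewhere, which goes against those labels, and the brighter Pcgf2 probe set read between 30.2 and 39.8 with its highest value on the Mel18ΔIEC-labelled array. Where these probes lie relative to the deleted parts is not known, so each array is named by its label throughout and every direction below rests on the labels.

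On the DKO-labelled array nearly the whole mitotic set read lower than in wild type, whereas on the arrays labelled for a single loss it lay close to wild type. The DKO-labelled value was below wild type for 43 of 44 genes (42 of the 43 tested), against 52.0% of all 11853 genes tested, and Kif23 was the exception. The median difference of the 44 genes was -0.78, a fold of 1.71, against -0.01 for all genes tested. By the 2-fold rule 8 of 44 were lower, against 2.19% of all genes, and none was higher, against 2.13%. The count of 8 was 3 with a floor at percentile 75 (2.17% of all genes) and 10 with pan-epithelial centring (2.80%). It was 4 with the mean of a gene's probe sets (1.62%) and also 4 with 16 added to each value (1.45%). At 1.5-fold 28 of 44 were lower, against 6.56% of all genes. The 8 were the condensin II subunit Ncapg2, Top2a, Mki67, Bub1, Aurkb, Ncapd2, Pbk and Spc25. The DKO-labelled array was the lowest of the 4 for 42 of 44 genes, against 35.1% of 12154 genes that reached the floor on some array, and the 2 others were Kif23 and Nuf2. In RNA pooled over a cell preparation, as here, fewer dividing cells and less RNA per dividing cell cannot be told apart.

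**Figure D1:**
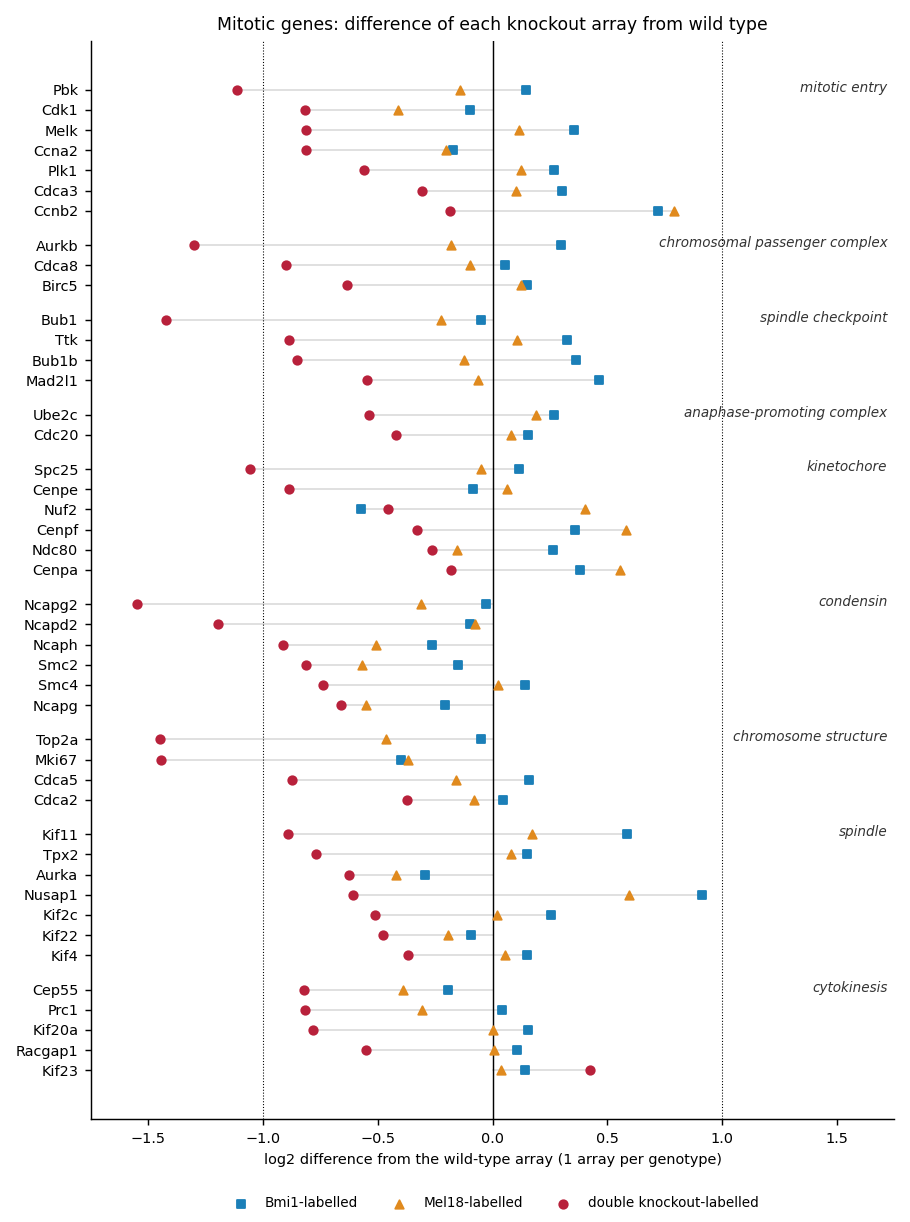
Log2 difference of each knockout array from the wild-type array for 44 mitotic genes, grouped by role and ordered within a group by the DKO-labelled difference, with 1 array per genotype and no error bars. Dotted lines mark 2-fold. Red circles (DKO-labelled) lie left of 0 for all but Kif23, while squares (Bmi1ΔIEC-labelled) and triangles (Mel18ΔIEC-labelled) lie inside the 2-fold lines.

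The values below run in the order wild type, Bmi1ΔIEC-labelled, Mel18ΔIEC-labelled and DKO-labelled. All 7 measured genes of mitotic entry had their lowest value on the DKO-labelled array. Pbk, a kinase active in mitosis, read 339, 375, 307 and 157 units, so the first 3 arrays lay close together and the fourth stood 2.16-fold under wild type. Cdk1, the kinase that starts mitosis, read 205, 192, 154 and 116, a difference of -0.82 on the DKO-labelled array. Its partner cyclin Ccna2 had a difference of -0.81 and Melk, another mitotic kinase, also -0.81, and Plk1 had -0.56. Ccnb2, a cyclin that activates Cdk1, read 93.3, 154, 161 and 82.1, so its DKO-labelled value was only 0.18 under wild type and both single-loss values were above wild type. Cdca3, which promotes mitotic entry, differed by -0.31.

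The chromosomal passenger complex corrects faulty attachments and directs cytokinesis. Aurkb, its kinase, read 40.9, 50.3, 36.1 and 16.6, and the last value lies under the floor, so the size of its difference (-1.30) is not exact. Cdca8, which encodes borealin, read 315, 327, 294 and 169, with the first 3 arrays alike and the DKO-labelled array 1.87-fold under wild type. Birc5, which encodes survivin, read 209, 232, 228 and 134. All 3 subunits were lowest on the DKO-labelled array. Incenp, the scaffold of the complex and no member of the list, differed by -0.85 there and by -0.59 on the Bmi1ΔIEC-labelled array.

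Among the checkpoint genes Bub1, a kinase that brings checkpoint proteins to the kinetochore, read 56.4, 54.4, 48.3 and 21.0. Ttk, the kinase that starts checkpoint signalling, read 44.5, 55.7, 47.8 and 24.1. Both DKO-labelled values lie under the floor. Mad2l1, which encodes the Mad2 inhibitor of Cdc20, read 219, 302, 209.7 and 149.9, and Bub1b, its partner in that inhibitor, differed by -0.85 on the DKO-labelled array. Their target Cdc20, the activator of the anaphase-promoting complex, read 470.4, 523, 498 and 351. The ubiquitin-conjugating enzyme of that complex, Ube2c, read 414, 498, 471 and 285. These 2 genes had smaller differences (-0.42 and -0.54) than the median of the set, although both were lowest on the DKO-labelled array.

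The kinetochore group had the smallest median among the 9 role groups, -0.39 over 6 genes. Spc25 of the Ndc80 complex, the part of the kinetochore that grips spindle fibres, read 109, 118, 105 and 52.4, a 2.08-fold difference between wild type and the DKO-labelled array. Its direct partner Spc24, from the list of other kinetochore genes, read 169, 215, 159 and 77.5. The remaining subunits of that complex, Ndc80 and Nuf2, lay near or under the floor with differences of -0.27 and -0.46, so the 4 subunits differed by unequal amounts. Cenpe, a kinetochore motor, read 69.2, 65.3, 72.3 and 37.4. Cenpa, the histone variant that marks centromeres, read 98.5, 128, 145 and 87.0. Cenpf, a late kinetochore protein, read 72.1, 92.4, 108 and 57.4. For Cenpa, Cenpf and Ccnb2 both single-loss arrays read above wild type, so their DKO-labelled values lay further from those arrays than from wild type.

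Condensin folds chromosomes for mitosis, and all 6 of its measured genes were lowest on the DKO-labelled array, with a median of -0.86. Ncapg2, a subunit of condensin II, had the lowest difference of all members and read 132, 129, 106 and 45.1, which is 2.92-fold between wild type and the DKO-labelled array. Ncapd2 of condensin I read 107, 99.999, 101 and 46.7, with 3 like values and 1 low one. Ncapg of condensin I read 35.2, 30.5, 24.0 and 22.3, mostly under the floor. Smc2 and Smc4, the ATPase pair shared by both complexes, differed by -0.82 and -0.74, and Ncaph by -0.91. The other condensin II subunits are outside the list. Ncapd3 differed by -0.89 and Ncaph2 by -0.25, so the condensin II subunits differed by unequal amounts. On the Mel18ΔIEC-labelled array Smc2, Ncapg and Ncaph differed from wild type by -0.57, -0.55 and -0.51, the lowest 3 values of the members there.

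Top2a, the topoisomerase that untangles sister chromosomes, read 227, 219, 165 and 83.1, and Mki67, which coats mitotic chromosomes and is the Ki-67 marker of dividing cells, read 612, 464, 474 and 225. They were 2.73-fold and 2.72-fold lower on the DKO-labelled array than in wild type, and Mki67 also lay under wild type on both single-loss arrays, by 0.40 and 0.37. Cdca2, a targeting subunit of protein phosphatase 1 on chromosomes, read 49.8, 51.4, 47.1 and 38.5. Cdca5, which encodes sororin and protects sister cohesion, differed by -0.88.

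Of the 7 spindle genes none was lower by the 2-fold rule, although all had their lowest value on the DKO-labelled array. Kif11, the motor that pushes spindle poles apart, read 60.3, 90.5, 67.9 and 32.5. Tpx2, which activates Aurora A, read 41.2, 45.7, 43.6 and 24.2. Kif4, a motor bound to chromosomes, read 67.7, 75.01, 70.2 and 52.4. Nusap1, which stabilises spindle fibres near chromosomes, read 92.8, 175, 140.2 and 60.9, so both single-loss arrays stood above wild type and the DKO-labelled array below it. Aurka, Kif22 and Kif2c differed by -0.63, -0.48 and -0.51.

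In cytokinesis Cep55, which recruits the machinery that cuts the last bridge between daughter cells, read 119, 104, 90.9 and 67.4. Prc1, which bundles the central spindle, read 179, 184, 145 and 102. Kif20a, a motor of the same structure, differed by -0.78. Kif23 and Racgap1 form the centralspindlin complex and lay on opposite sides of wild type. Kif23 read 141, 156, 145 and 189.8, its highest value being on the DKO-labelled array, whereas Racgap1 differed by -0.55 there. The Kif23 values rest on 1 probe set, since its others read 11.4 units or less on every array, under the floor.

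**Figure D2:**
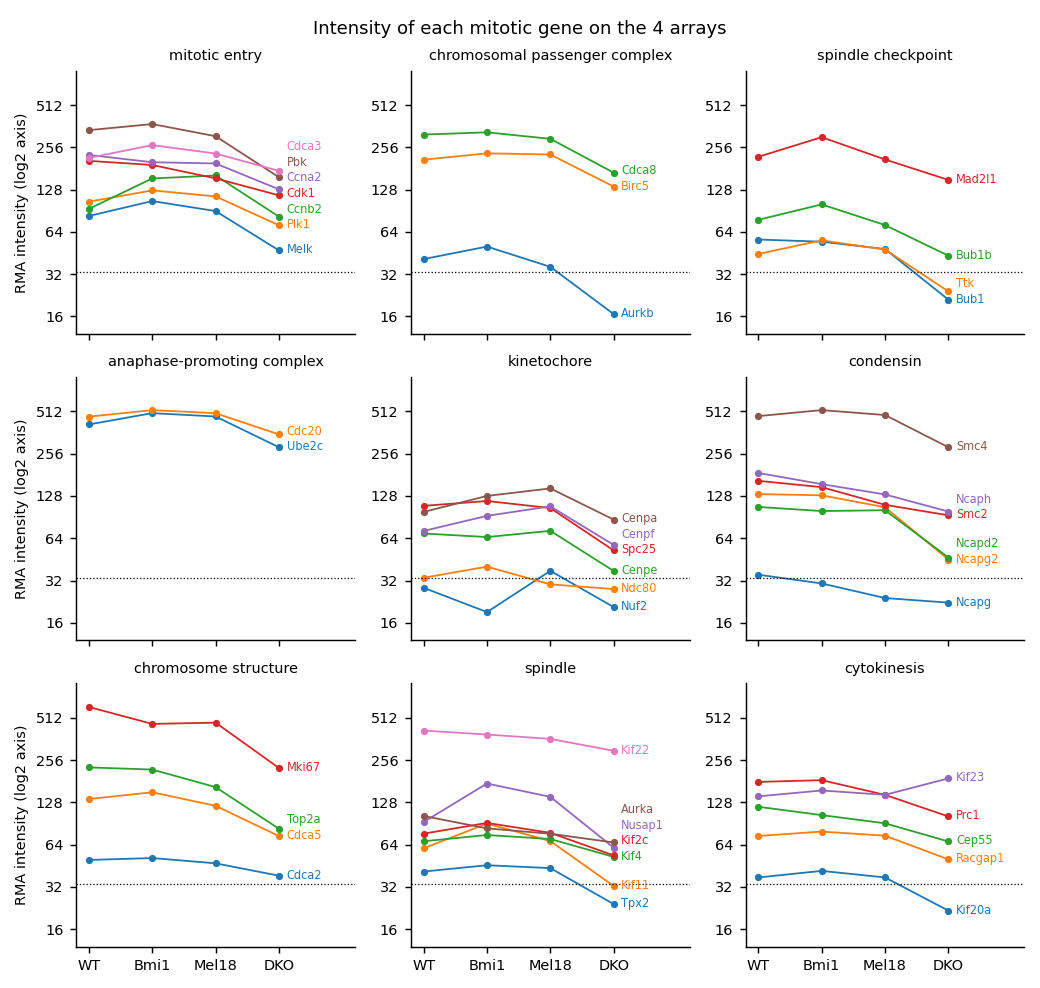
Intensity of each of the 44 mitotic genes on the 4 arrays (1 array per genotype, log2 axis in RMA intensity units), in 9 panels by role, with a line joining the values of a gene and a dotted line at the floor of 33.4 units. In most panels the first 3 arrays lie close together and the DKO-labelled value is the low one, with Kif23 as the exception and with Ccnb2 and Nusap1 higher on the single-loss arrays.

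A second reading of these genes came from their other probe sets. Of the 94 probe sets 67 reached the floor on some array, and 64 of these read lower on the DKO-labelled array than in wild type. Among the 18 members with 2 or more such probe sets, 16 had 1 sign throughout. Tpx2 and Cenpf did not. A second Tpx2 probe set read 25.2, 15.6, 19.3 and 48.3, a difference of 0.94 against -0.77 for the one used, and a second Cenpf probe set differed by 0.07. A second Cenpa probe set read 48.1, 29.1, 31.0 and 23.4, a difference of -1.04 against -0.18, so the small difference given for Cenpa depends on the probe set. The median spread between probe sets of 1 member was 0.30. Across 8 or 9 alternatives that kept the 2-fold rule, Mki67 and Pbk were lower in every one they entered, while the other 6 genes lost the call in some. Spc25 ranged from -1.16 to -0.05 and Top2a from -1.56 to -0.46 with the probe sets or scaling used. The -0.05 came from a Spc25 probe set that read 16.9, 16.2, 17.7 and 16.4, under the floor on every array. The -0.46 came from a Top2a probe set over the floor, at 77.4, 51.7, 53.1 and 56.4.

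**Figure D3:**
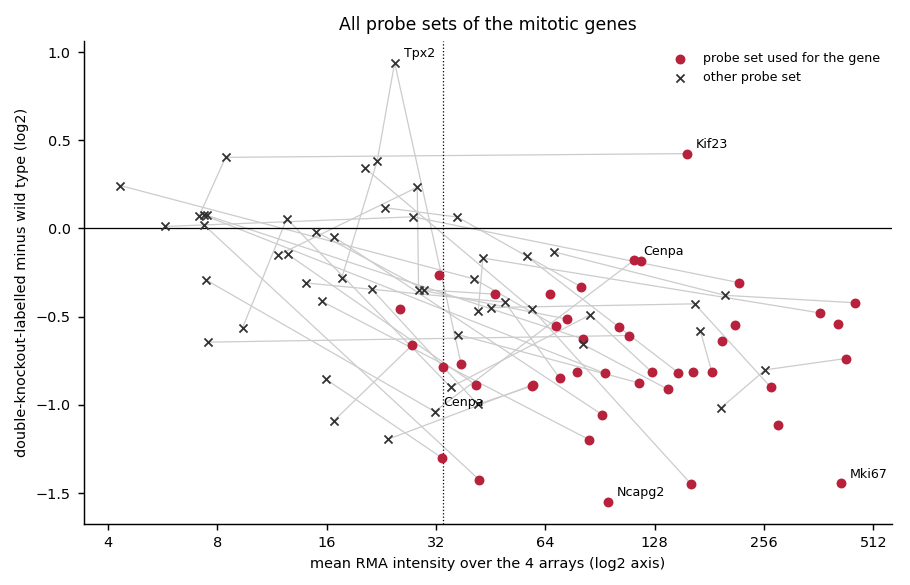
Log2 difference between the DKO-labelled and the wild-type array for all 94 probe sets of the members against their mean intensity over the 4 arrays (log2 axis). Filled circles are the probe sets used, crosses the others, and grey lines join probe sets of 1 gene. Right of the dotted line at the floor of 33.4 units nearly all points lie below 0.

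Promoter letters of these genes were read next. The list was chosen as genes of the G2 and M phases, so features known for that class are not independent of the choice. Promoters of genes peaking in G2 and M often carry a CHR element, the docking site of the MuvB core of the DREAM complex, and CCAAT boxes, which bind NF-Y. RefSeq promoters (build GRCm38.p6, from 250 bases before to 50 after each annotated start) were held for 38 of the 45 listed genes, with 40 starts. The CHR letters TTTGAA (reverse complement TTCAAA), on either strand, occurred at 31 of 40 starts (77.5%), against 17.9% of all 32851 promoters of the same length. The letters CCAAT (reverse complement ATTGG) occurred at 28 of 40 (70.0%), against 37.4% of all, and 18 of 40 (45.0%) held 2 or more, against 11.7%. An E2F letter string, TTCCCGC (reverse complement GCGGGAA), occurred at 2 of 40 (5.00%), close to the 4.60% of all promoters. At least 1 CHR together with at least 1 CCAAT was found at 25 of 40 (62.5%), against 6.95%. Matches of different words were counted separately, also where they share a base. A match is a description of letters and not a measured site.

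Where a CHR was present, the one nearest the start lay within 50 bases of it at 28 of 31 starts, and 60 of 61 CCAAT boxes began before the start. Positions were not counted over all promoters, and 250 of the 300 bases of each window lie before the start. Whether these positions are particular to the set was therefore not tested. The following 30-base windows show the CHR nearest the start in capitals for the member of each role group other than the chromosomal passenger complex that had the lowest difference between the DKO-labelled and wild-type arrays among those with a CHR and a single annotated start. They are shown because the element is the feature most of the set has in common, and TTCAAA is the same element read from the other strand.
Cdk1, chr10:69352910-69352939, minus strand: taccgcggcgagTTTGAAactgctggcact
Ttk, chr9:83834684-83834713, plus strand: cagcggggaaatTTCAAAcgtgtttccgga
Ube2c, chr2:164769888-164769917, plus strand: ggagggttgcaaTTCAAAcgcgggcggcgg
Spc25, chr2:69206172-69206201, minus strand: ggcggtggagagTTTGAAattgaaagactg
Ncapg2, chr12:116405406-116405435, plus strand: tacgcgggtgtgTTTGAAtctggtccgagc
Top2a, chr11:99024195-99024224, minus strand: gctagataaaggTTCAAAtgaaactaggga
Kif11, chr19:37376351-37376380, plus strand: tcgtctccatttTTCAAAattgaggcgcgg
Racgap1, chr15:99651634-99651663, minus strand: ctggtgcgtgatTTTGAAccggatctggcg

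Longer stretches before the start are given for 3 members that read more than 2-fold lower on the DKO-labelled array and for 2 that differed least there, with CHR and CCAAT letters in capitals. The stretches of Ncapg2, the lowest member, and Kif23, the only higher one, trimmed in the same way to bases outside annotated genes, held neither word and are not printed. Both genes do have a CHR outside the stretch, Ncapg2 18 bases before the start and Kif23 just after it. Kif23 also has a CCAAT box just before the start, outside its stretch. The Top2a stretch holds 4 CCAAT boxes and 1 CHR, the Mki67 stretch 1 CCAAT box and 2 CHR, and the Bub1 stretch 2 CCAAT boxes and no CHR. The Ccnb2 and Cenpa stretches hold 3 and 2 CCAAT boxes, and both genes have a CHR just after the start, outside the stretch.
Top2a, chr11:99024200-99024339, minus strand: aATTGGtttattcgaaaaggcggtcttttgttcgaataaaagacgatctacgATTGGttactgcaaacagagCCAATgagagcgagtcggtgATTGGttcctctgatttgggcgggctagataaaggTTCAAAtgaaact
Mki67, chr7:135716451-135716529, minus strand: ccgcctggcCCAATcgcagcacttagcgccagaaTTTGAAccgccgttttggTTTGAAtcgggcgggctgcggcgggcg
Bub1, chr2:127831860-127832009, minus strand: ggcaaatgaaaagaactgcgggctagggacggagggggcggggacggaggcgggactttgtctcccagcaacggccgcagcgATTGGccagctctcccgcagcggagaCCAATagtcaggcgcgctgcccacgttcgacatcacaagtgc
Ccnb2, chr9:70421555-70421704, minus strand: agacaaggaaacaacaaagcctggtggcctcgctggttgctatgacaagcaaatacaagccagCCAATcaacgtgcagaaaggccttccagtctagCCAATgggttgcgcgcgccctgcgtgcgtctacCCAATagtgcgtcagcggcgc
Cenpa, chr5:30666736-30666876, plus strand: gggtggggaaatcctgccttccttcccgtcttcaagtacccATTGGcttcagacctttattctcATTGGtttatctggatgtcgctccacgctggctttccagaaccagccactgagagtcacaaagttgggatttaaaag
Having the CHR letters did not sort the members by size of difference. The 29 measured members with a CHR had a median DKO-labelled difference of -0.66 (from -1.55 to 0.42), and the 8 with a promoter but no such letters had -0.73 (from -1.42 to -0.46).

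**Figure D4:**
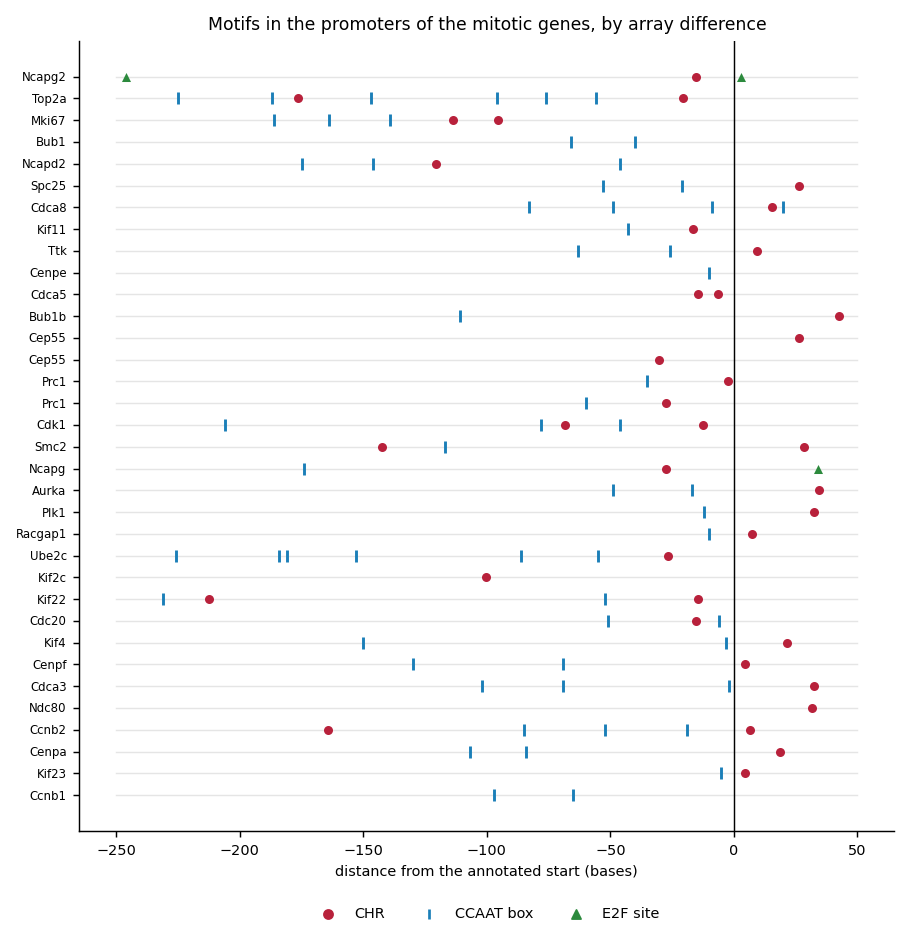
Position of CHR (red circles), CCAAT (blue bars) and E2F letters (green triangles) relative to the annotated start (x axis in bases) in the 34 promoters of listed genes that hold any of them, ordered from the lowest DKO-labelled difference at the top to the highest, with Ccnb1, which was not measured, last. CHR letters gather around the start and CCAAT letters lie before it, as most of the window does, at the top and at the bottom of the order alike. Positions in all promoters were not counted.

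On the Bmi1ΔIEC-labelled array no member was at least 2-fold lower than wild type (2.86% of all 11934 genes tested were) and none was 2-fold higher (5.76% were). The median difference was 0.14, against 0.13 for all genes tested. Under wild type lay 15 of 44 members (14 of the 43 tested), against 40.0% of all genes. By 1.5-fold 2 members were higher, Nusap1 at 0.91 and Ccnb2 at 0.72, against 17.8% of all genes. The members therefore sat where the average gene sat on this array. When each array was centred on genes reaching the floor, which moves the median of all genes on this array from 0.13 to -0.12, the members' median became -0.09, so the small positive value has no fixed direction.

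On the Mel18ΔIEC-labelled array likewise no member was 2-fold lower (2.50% of 11862 genes tested) or 2-fold higher (3.15%). The median difference was -0.06, against 0.07 for all genes tested, and became 0.091 with pan-epithelial centring. It came with 23 of 44 members under wild type, against 41.9% of all genes. At 1.5-fold Ccnb2 (0.79) and Nusap1 (0.60) were higher, against 11.8% of all genes. Set directly against each other, the Bmi1ΔIEC-labelled and Mel18ΔIEC-labelled arrays differed by a median of 0.16 over the members, with none 2-fold lower (0.522% of all genes) or higher (0.882%). The Bmi1ΔIEC-labelled value was the lower one for 7 of 44 members (7 of the 43 tested), against 41.9% of all genes, Nuf2 being the farthest at -0.98.

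Against the single losses the DKO-labelled array was lower as well. In each comparison 42 of the 44 members were tested. Compared with the Bmi1ΔIEC-labelled array 15 of 44 members were at least 2-fold lower (7.96% of all genes) and none higher (4.30%), and 34 were at least 1.5-fold lower (21.3%). Compared with the Mel18ΔIEC-labelled array 8 were 2-fold lower (4.53%), none higher (3.84%) and 27 at least 1.5-fold lower (14.1%). Both 2-fold counts depended on the processing. The 15 became 6 with a floor at percentile 75 (8.33% of all genes) and 7 with arrays centred on genes reaching the floor (4.31%). With pan-epithelial centring the 15 became 35 (22.1%). In the same order the 8 became 2, 3 and 21 (4.94%, 3.03% and 9.28%). The share of all genes thus moved with the processing too. The medians were -0.82 and -0.73, against -0.14 and -0.09 for all genes tested. These comparisons and that with wild type share the DKO-labelled array and are not separate evidence. The largest difference from the Bmi1ΔIEC-labelled array was that of Aurkb (-1.60).

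The effect of losing both genes can be set against the sum of the single differences. The DKO-labelled value minus both single-loss values plus wild type had a median of -0.89 over the members, against -0.21 for all genes reaching the floor, and it was -1 or lower for 15 of 44 members (18.6% of those genes) and 1 or higher for none (8.70%). It was lowest for Nusap1 (-2.11), Ccnb2 (-1.69) and Kif11 (-1.65) and near 0 for Aurka (0.09), Ncapg (0.10) and Smc2 (-0.10). This term carries the noise of 4 arrays. When each array was centred on genes reaching the floor its median was -0.49.

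Other genes of cell division were read from lists that do not overlap the members. Of 120 further mitotic genes with a probe set, 102 were tested between the DKO-labelled and wild-type arrays. By the 2-fold rule 11 were lower on the DKO-labelled array (2.19% of all genes) and none was higher (2.13%), with a median of -0.28 over all 120. Among their regulators Wee1, the kinase that restrains Cdk1, read 296, 543, 396 and 87.4 and Cks2, a Cdk1-binding subunit, read 1813, 2067, 2096 and 802. Haspin and Plk4 differed by -0.98 and -0.96. Haspin lay under wild type on the Bmi1ΔIEC-labelled and Mel18ΔIEC-labelled arrays too (-0.74 and -0.86), while Plk4 differed there by 0.04 and -0.29. Foxm1, a transcription factor of late cell cycle genes, read 129.7, 174, 182 and 166, with its lowest value in wild type. Mybl2, which encodes B-Myb, read 31.7, 15.8, 14.9 and 14.7, under the floor on every array, so no difference was read for it.

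In the kinetochore and checkpoint list 24 of 32 genes were tested. Of these 3 were lower, namely Cenpk (-1.37), the Mad2 remodeller Trip13 (-1.18) and Spc24 (-1.13), and none was higher. For this list and those that follow in this paragraph, 2.19% of all genes tested were lower and 2.13% higher. Kntc1, of the complex that removes checkpoint proteins, differed by -0.74. In the list of other spindle and cytokinesis genes 28 of 33 were tested. Here 4 were lower, Kif20b (-1.47), Shcbp1 (-1.15), the tubulin-binding Stmn1 (-1.03) and Spag5 (-1.01). The median of these lists was -0.41 and -0.43. Of 15 cohesin and separase genes 14 were tested, and only Sgo1, the protector of centromeric cohesion, was lower (-1.15). It was followed by Sgo2a (-0.81), Pds5a (-0.77) and Pds5b (-0.40). Pds5a was lower still on the Bmi1ΔIEC-labelled and Mel18ΔIEC-labelled arrays (-0.94 and -0.86). Of 17 other anaphase-promoting complex genes only Fbxo5, the inhibitor of that complex in S and G2 phase, was lower (-1.39). The next in absolute size did not reach 2-fold and were Fzr1, above wild type (0.30), and Anapc1 and Cdc27 (-0.28 each). The median was -0.21 for the first list and -0.06 for the second.

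DNA replication genes had a lower median than the mitotic genes on each of the knockout arrays. On the DKO-labelled array 37 of 38 were tested and 23 were lower by the 2-fold rule (2.19% of all genes). The median there was -1.10, and the lowest were Mcm5, Mcm6, Rrm2 and E2f8 between -2.32 and -1.72. On the Mel18ΔIEC-labelled array this list had a median of -0.53 with 33 of 38 genes under wild type (41.9% of all genes) and 4 at least 2-fold lower (2.50%). The mitotic set had -0.06 there with 23 of 44 under wild type. E2f8, a repressor of replication genes late in S phase, read 167, 129.5, 107 and 50.8. On the Bmi1ΔIEC-labelled array the replication list lay at -0.14 with 25 of 38 genes under wild type (40.0% of all genes). The mitotic set had 0.14 there with 15 of 44. No test of the difference between the lists exists with 1 array per genotype.

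In the list of G1 cyclins and cell cycle inhibitors none of 17 genes was lower on the DKO-labelled array (2.19% of all genes) and 3 were higher (2.13%). Cdkn2a, which encodes the cell cycle inhibitors p16 and Arf, read 10.6, 11.9, 11.7 and 662, so it was above the floor on the DKO-labelled array alone. Cdkn2b, which encodes the inhibitor p15, read 282, 491, 648 and 817, and the D-type cyclin Ccnd2 differed by 1.30. Cdk2, the kinase of S phase entry, differed by -0.85. Cdkn1a, which encodes the inhibitor p21, read 3238, 2670.4, 2831 and 3242, without a difference between wild type and the DKO-labelled array.

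**Figure D5:**
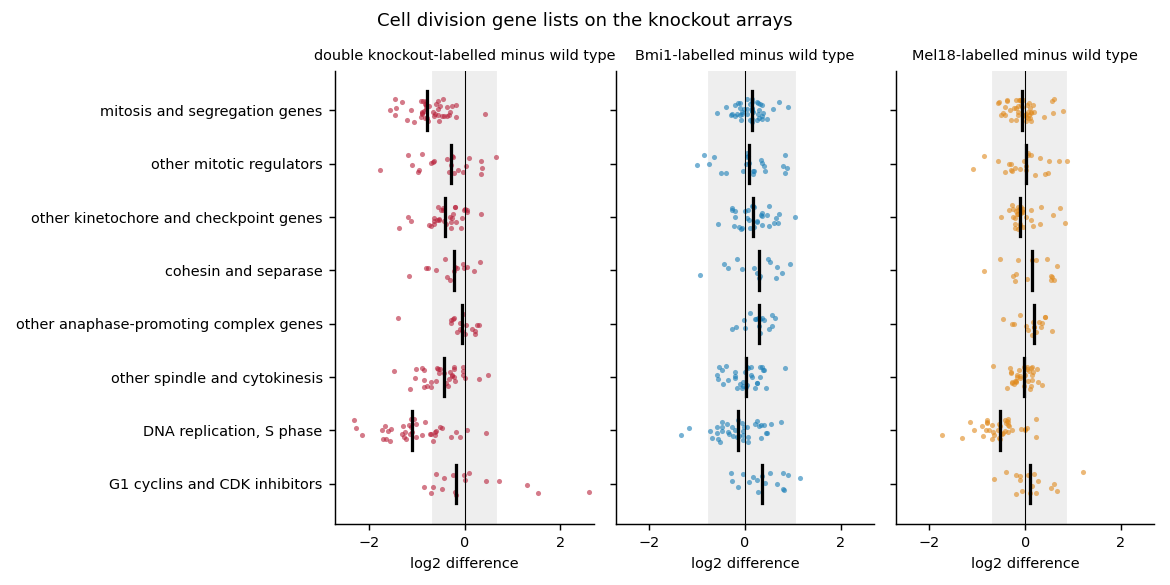
Log2 difference from wild type on the DKO-labelled, Bmi1ΔIEC-labelled and Mel18ΔIEC-labelled arrays for the 44 mitotic genes and 7 other lists of cell division genes, a point per gene with the list median as a black bar, and in grey the range from percentile 5 to 95 of all genes tested. Cdkn2a (5.97, DKO-labelled) is drawn at the right edge of its panel. All 8 medians lie left of 0 on the DKO-labelled array, that of the replication list (-1.10) and the mitotic set (-0.78) farthest. The replication list also lies left of 0 on the Mel18ΔIEC-labelled (-0.53) and Bmi1ΔIEC-labelled (-0.14) arrays.

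Markers of the cells in the preparation were read beside these results. All 9 pan-epithelial markers were above the floor on some array, their summed intensity was 71832, 60086, 63486 and 74253 units, and none was 2-fold apart between wild type and the DKO-labelled array, so markers of the labelled cell type were present on every array. Of 10 stem and crypt base markers 8 lay lower on the DKO-labelled array than in wild type, 4 of them by the 2-fold rule (Cdca7, Axin2, Smoc2 and Lrig1), while Sox9 was higher, with a list median of -0.58, and the medians were 0.85 and 0.61 on the Bmi1ΔIEC-labelled and Mel18ΔIEC-labelled arrays. Their summed intensity was 1231, 2365, 1787 and 1107. Among 10 colonocyte markers 3 were lower (Slc37a2, Aqp8 and Slc26a3) and 2 higher (Guca2a and Car1) on the DKO-labelled array. Small intestine markers had 6 of 8 higher there, with summed intensities of 639, 727, 627 and 1866. For all marker lists, here and below, 2.19% of all genes tested were lower on that array and 2.13% higher.

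Markers of blood and stromal cells were not lower on the DKO-labelled array by the 2-fold rule in any of the 8 lists. T and NK cell markers had 3 of 11 higher (Gzma, Cd3g and Gzmb), with summed intensities of 1117, 755, 576 and 2120.5, and B and plasma cell markers had 1 of 6 higher (Jchain), with 1068, 1001, 932 and 1929. Germinal centre B cell markers summed to 362, 329, 359 and 382, fibroblast markers to 3638, 1436, 3769 and 5655, and macrophage markers to 2903, 1157, 1720.0 and 3453. Neutrophil markers summed to 1902, 153, 261 and 1836, smooth muscle markers to 6475, 4157, 5800.5 and 6152, and endothelial markers to 180.0, 192, 161 and 198. Goblet cell markers summed to 73334, 54707, 78437 and 98983, with Clca1 the 1 of 8 higher on the DKO-labelled array. The part of crypt, stromal and blood cell content in the mitotic differences was not tested.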

How the data were processed

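The samples were 4 arrays of mouse colonic epithelial cells, 1 per genotype, mapped to genotypes by their labels. The deposited values are linear probe-set intensities, made by the authors with RMA in Affymetrix Expression Console, per the submitters' processing notes, and no version is given there. RMA corrects background and quantile-normalizes arrays, which removes any overall change in RNA amount, and scanner files were not used here. Here log2 of the deposited intensity was taken without a pseudocount (Python 3.11.15, numpy 2.4.6, pandas 2.3.3). Gene symbols came from the platform annotation, updated through the RefSeq gene table: 34945 of 45037 probe sets had 1 symbol, 932 had several and were left out, and 9160 had none there. The most intense probe set stood for a gene.

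A gene was tested in a comparison when its brighter value reached the floor, percentile 50 of all values (33.4), and counted when it differed at least 2-fold. Medians of lists cover all measured genes. Scripts were tested on simulated data. Full values are given in each role group for the 2 members with the largest and the 1 with the smallest difference between the DKO-labelled and wild-type arrays and for members whose probe sets differ in sign. In other pathway lists up to 4 genes with the largest difference are named. Nusap1, Incenp, Ncapd3, Ncaph2 and the marker genes were singled out after their values were seen. The members and all lists were chosen with earlier results of these data known. Alternatives changed the probe-set rule, floor, scaling, pseudocount and fold. Motifs were counted in RefSeq promoters (GRCm38.p6). One promoter window is not reported here.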

Additional observations from a re-analysis of the deposited data

Results flagged for a closer look

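For Nusap1 and Ccnb2 the effect of losing one gene was at least 1.5-fold in one direction with the other gene present and at least 1.5-fold in the opposite direction with it lost. They were found by reading all 44 members, and the share of all genes that pass this rule was not counted. Of all genes tested, 17.8% and 11.8% were at least 1.5-fold higher than wild type on the Bmi1ΔIEC-labelled and Mel18ΔIEC-labelled arrays. At any size, 18 of 44 members read above wild type on both single-loss arrays, and all of these but Kif23 read below it on the DKO-labelled array. Most genes lay above wild type on those arrays: 40.0% (Bmi1ΔIEC-labelled) and 41.9% (Mel18ΔIEC-labelled) of all genes tested lay below. The 18 also depends on scaling. With arrays centred on genes reaching the floor, 29 and 37 of 44 members lay below wild type there. Nusap1, which stabilises spindle fibres, was 0.91 higher (log2) on the Bmi1ΔIEC-labelled array than in wild type, but the DKO-labelled array was 1.20 lower than the Mel18ΔIEC-labelled one (-1.20). For loss of Mel18 the same gene gave 0.60 with Bmi1 present and -1.52 with Bmi1 lost. Ccnb2, a cyclin partner of Cdk1, gave 0.72 and -0.97 for loss of Bmi1 and 0.79 and -0.90 for loss of Mel18. With 1 array per genotype the difference between these effects was not tested. The terms of each gene use the same 4 arrays and are not separate evidence.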

How the results depend on the processing

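Of 195 alternative values 143 stayed within 1.5 times the given count or within 0.1 (log2) of the given median, and 52 did not. Most of the 143 are counts of 0 that stayed 0. The 143 also include medians under a changed floor, which could not move because medians cover all members whatever the floor. On the DKO-labelled array 41 of 44 members lay below wild type under every alternative run. No paired analysis was possible because each genotype has 1 array, and for the same reason no array could be left out. The members' medians on both single-loss arrays have no fixed sign. On the Bmi1ΔIEC-labelled array it was -0.089 when each array was centred on genes reaching the floor, against 0.14. On the Mel18ΔIEC-labelled array it was 0.001 with arrays centred on their medians, against -0.06. Centring on genes reaching the floor gave -0.22 on the Mel18ΔIEC-labelled array. For the DKO-labelled array it gave -0.58 with 7 genes lower against Bmi1ΔIEC (4.31% of all genes) and -0.57 with 3 lower against Mel18ΔIEC (3.03%). It also gave 1 gene lower between the single losses (0.707% of all genes) and a non-additive median of -0.49. With the mean of all probe sets of a gene, 4, 7 and 2 members were lower on the DKO-labelled array against wild type, Bmi1ΔIEC and Mel18ΔIEC (1.62%, 6.02% and 3.31% of all genes). The medians were -0.54, -0.64 and -0.51 and the non-additive median -0.59. Without probe sets that may match several transcripts only 36 members have a value. The counts were then 5, 9 and 5 (2.19%, 8.05% and 4.59% of all genes), the medians -0.60, -0.71 and -0.57, and the non-additive median -0.68. With 16 added to each value the counts were 4, 6 and 3 (1.45%, 5.46% and 3.22% of all genes). The medians were -0.59, -0.68 and -0.57, and the non-additive median -0.72. With the floor at percentile 75 the counts were 3, 6 and 2 (2.17%, 8.33% and 4.94% of all genes). With a 1.5-fold rule they were 28, 34 and 27 (6.56%, 21.3% and 14.1%). That rule gave 2 members higher on each single-loss array (17.8% on Bmi1ΔIEC, 11.8% on Mel18ΔIEC) and 1 lower in Bmi1ΔIEC than in Mel18ΔIEC (2.36%). Centring on pan-epithelial markers, which moves all genes, gave medians of -0.88, -1.25 and -0.99 with 35 and 21 members lower against the single losses (22.1% and 9.28% of all genes were), 0.47 with 2 members higher on the Bmi1ΔIEC-labelled array (14.2% of all genes were), 0.091 on the Mel18ΔIEC-labelled array, where the sign again turned, 0.34 between the single losses and a non-additive median of -1.47. Centring on array medians gave 1 member higher on the Bmi1ΔIEC-labelled array (7.45% of all genes) and 13 lower against Mel18ΔIEC (5.17%). The non-additive median was -1.04 with that centring and -0.73 with quantile normalization. Beyond how each alternative is built, the cause was not tested. Low signal limits 9 members under the floor on the DKO-labelled array, whose differences are not exact.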
